A study of Homo sapiens with 14 samples.

Results

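The 36 genes described are known as targets of the transcription factor MYC. They are ribosome biogenesis factors and the polyamine synthesis genes SRM and ODC1. Levels were measured in human T cell acute lymphoblastic leukemia cells after knockdown of a histone demethylase. They were chosen by gene symbol, and each of the 36 was found once in every deposited table of 55075 genes. The study knocked down JMJD3 (gene KDM6B) or UTX (gene KDM6A), 2 histone demethylases that act on methylated lysine 27 of histone H3, in the established lines CUTLL1 and CEM. Cells growing in suspension were infected with a retrovirus carrying a hairpin against JMJD3 (shJMJD3), against UTX (shUTX) or against Renilla luciferase (shRenilla), a sequence that human cells lack and that serves as the control. The 14 samples were 3 CUTLL1 shJMJD3, 2 CUTLL1 shUTX, 3 CUTLL1 shRenilla, 2 CEM shJMJD3, 2 CEM shUTX and 2 CEM shRenilla samples. All groups therefore share retroviral infection, and neither the hairpin sequence, the number of hairpins per gene nor the time after infection was stated in the sources used.

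Making a ribosome starts in the nucleolus, where RNA polymerase I transcribes the ribosomal RNA precursor. Small nucleolar ribonucleoproteins guide its methylation (box C/D particles) and pseudouridylation (box H/ACA particles), while assembly factors fold, cut and package it into the small and large subunits. MYC is known to bind E-boxes, the hexamer CACGTG, near the start sites of many of these genes, and of the polyamine synthesis genes SRM and ODC1 that stand beside them in growth programs. No sample altered MYC itself, so the word MYC-driven is background here and was not tested.

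The deposited values were raw counts pooled into 1 column per hairpin and line, so no replicate error exists within a line. Column totals were 174301733 counts for CUTLL1 shJMJD3, 101792401 for CUTLL1 shUTX, 70280185 for CEM shJMJD3, 70834792 for CEM shUTX and 104190473 for CEM shRenilla. The CUTLL1 shRenilla column came in 2 forms, a larger one of 258014046 counts in the table with shJMJD3 and a smaller one of 144394369 in the table with shUTX, which leave a remainder of 113619677. Small non-coding RNAs took 11.7% of the CUTLL1 shJMJD3 counts and 2.58% of the shUTX counts, against 9.33% of the larger, 1.97% of the smaller and 18.7% of the remainder of the control, while in CEM they took at most 0.0486%. The 10 T cell markers all had counts in every column and summed to between 3464 and 5244 CPM (counts scaled to the column total). B cell markers, mostly CD79A, reached 4.54 CPM in CUTLL1 and 83.4 CPM in CEM, and the myeloid, erythroid and fibroblast lists stayed under 10 CPM in each column. The targeted genes were lower in their own knockdowns. KDM6B had 10.9 CPM in CUTLL1 shJMJD3 against 18.8 CPM in its control, and 52.2 CPM in CEM shJMJD3 against 206 CPM in shRenilla. KDM6A had 19.3 CPM in CUTLL1 shUTX against 43.0 CPM in its control, and 51.5 CPM in CEM shUTX against 136 CPM in shRenilla.

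Promoter windows from RefSeq (GRCh38.p14, 250 bases before to 50 after each gene start) were found for 31 of the 36 genes, in 41 windows. CACGTG, which reads the same on both strands, occurred in 17 of the 31 genes (54.8%), against 8.77% of 27305 gene symbols overall and 28.9% of 90 other ribosome biogenesis factors. Of the 19 matches in the 36 genes, 16 (84.2%) began within 50 bases of the start, against 36.9% of the 2821 matches over all genes. The genes were chosen as known MYC targets, so the share describes that choice. The windows below, 5′ to 3′, belong to the 3 genes with an E-box and the lowest ratios in shJMJD3 cells and to FBL, the gene with the highest, and capitals mark the E-box.
SRM, chr1:11059969-11060268, minus strand: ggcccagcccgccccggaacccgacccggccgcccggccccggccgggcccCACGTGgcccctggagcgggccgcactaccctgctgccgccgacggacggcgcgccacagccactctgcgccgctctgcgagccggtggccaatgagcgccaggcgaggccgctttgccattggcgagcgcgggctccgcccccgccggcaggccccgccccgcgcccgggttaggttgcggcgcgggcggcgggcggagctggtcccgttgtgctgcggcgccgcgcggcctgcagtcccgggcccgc
MYBBP1A, chr17:4555335-4555634, minus strand: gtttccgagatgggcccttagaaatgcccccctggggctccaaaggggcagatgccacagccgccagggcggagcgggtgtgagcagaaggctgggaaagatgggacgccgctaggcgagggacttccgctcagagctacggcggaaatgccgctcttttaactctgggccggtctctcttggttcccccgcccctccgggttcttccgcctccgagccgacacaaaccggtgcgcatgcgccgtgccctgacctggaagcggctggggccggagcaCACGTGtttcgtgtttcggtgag
NOP14, chr4:2963357-2963656, minus strand: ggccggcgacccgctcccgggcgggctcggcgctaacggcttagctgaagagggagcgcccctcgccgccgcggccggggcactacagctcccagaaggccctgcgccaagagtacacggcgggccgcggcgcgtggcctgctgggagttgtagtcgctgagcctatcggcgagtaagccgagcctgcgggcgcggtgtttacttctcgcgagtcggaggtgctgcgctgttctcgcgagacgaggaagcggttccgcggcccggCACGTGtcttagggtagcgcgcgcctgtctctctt
FBL, chr19:39846330-39846629, minus strand: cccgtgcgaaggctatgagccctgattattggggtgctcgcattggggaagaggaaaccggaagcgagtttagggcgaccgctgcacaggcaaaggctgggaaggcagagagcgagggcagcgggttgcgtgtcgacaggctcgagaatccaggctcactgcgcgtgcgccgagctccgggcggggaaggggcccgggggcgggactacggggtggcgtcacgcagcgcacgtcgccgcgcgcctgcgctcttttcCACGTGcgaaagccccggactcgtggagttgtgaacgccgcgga
The motif began at position -199, before the start, in SRM, and 27, 15 and 6 bases after it in MYBBP1A, NOP14 and FBL. A match is a string of letters and not a measured binding site.

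**Figure D1:**
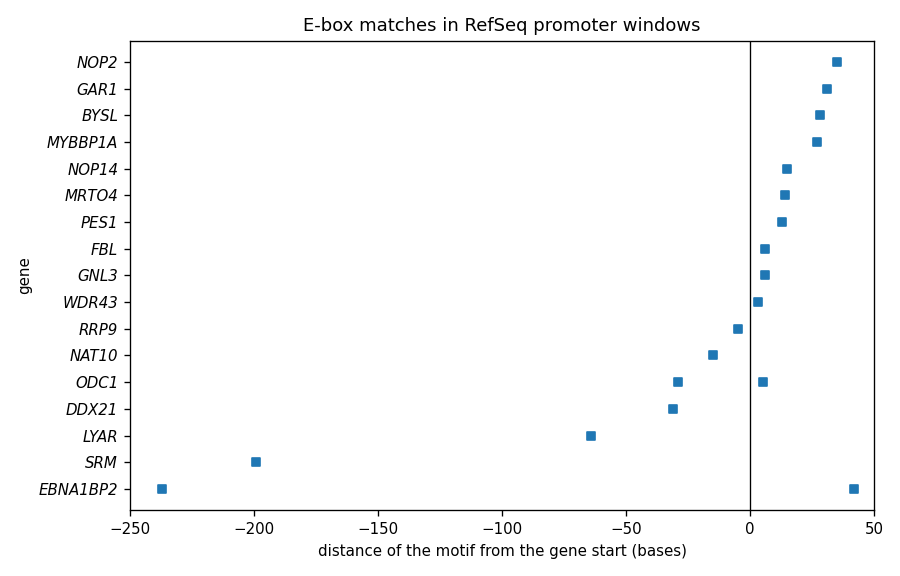
Position of every CACGTG match in the RefSeq promoter windows of 17 of the 36 genes. The x axis is the distance in bases from the gene start (vertical line), and each square is the first base of 1 match. All but 3 of the 19 matches lie within 50 bases of the start, and those of LYAR, SRM and EBNA1BP2 at -64, -199 and -237 lie farther upstream.

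The first question was how the 36 genes stood in shJMJD3 cells against shRenilla cells. Most were lower in both lines. Log2 ratios, scaled by the trimmed mean of M values (TMM) of the 2 columns compared, had a median of -0.30 in CUTLL1 (range -1.18 to 0.67) and -0.29 in CEM (range -1.29 to 0.73), where the medians over all genes with at least 50 counts were -0.00 and -0.02. Of the 36 genes, 30 in CUTLL1 and 26 in CEM had a ratio below 0, and 24 did so in both lines, against 30.8% of all genes with at least 50 counts in each line. Over all genes with at least 10 CPM, 50.3% were below 0 in CUTLL1 and 45.9% in CEM. At least 1.5-fold lower were 2 of 36 in CUTLL1 and 11 of 36 in CEM, where the backgrounds over all genes with at least 50 counts were 7.25% and 24.0%. At least 1.5-fold higher were 1 in CUTLL1 and 3 in CEM, against backgrounds of 8.62% and 22.3%. Among genes with at least 10 CPM the backgrounds were 2.16% and 16.5% lower and 3.93% and 23.3% higher. The lower genes are 5.56% of the 36 in CUTLL1 and 30.6% in CEM. The CUTLL1 share lies below the 7.25% at 50 counts and above the 2.16% at 10 CPM. The CEM share lies not far above the 24.0% at 50 counts and farther above the 16.5% at 10 CPM. These shares were not tested. Most members thus lay slightly below 0, and a few lay far below the rest. In bulk libraries, fewer cells expressing a gene and less RNA per cell cannot be told apart.

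Relative to TMM, scaling to column totals shifted all log2 ratios by -0.15 in CUTLL1 and -0.31 in CEM for shJMJD3 over shRenilla, by -0.05 and -0.03 for shUTX over shRenilla, and by -0.32 and -0.25 for shJMJD3 over shUTX. With column totals, 9 genes in CUTLL1 and 18 in CEM were 1.5-fold lower in shJMJD3 than in shRenilla and 0 were higher, where over all genes with at least 50 counts 11.8% and 36.5% were lower and 6.07% and 13.9% higher on that scale. The summed level of the 35 genes without WDR74, scaled to column totals, was 3275 CPM in CUTLL1 shJMJD3 against 4303 CPM in its control, and 3931 CPM in CEM shJMJD3 against 5634 CPM in shRenilla.

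**Figure D2:**
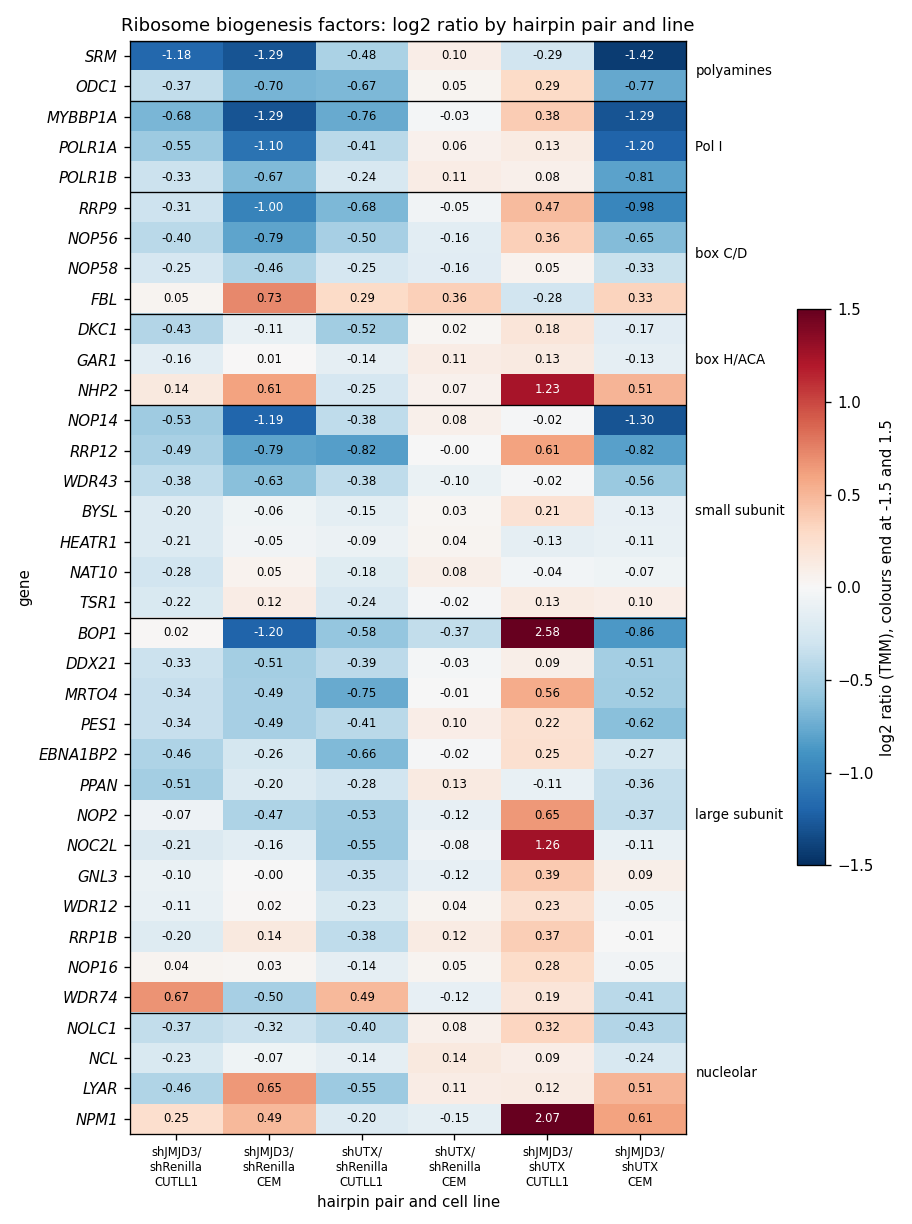
Log2 ratio (TMM) of each of the 36 genes, in rows grouped by role, for shJMJD3 over shRenilla, shUTX over shRenilla and shJMJD3 over shUTX in CUTLL1 and CEM, in columns; blue is lower and red higher in the hairpin named first. The shJMJD3 over shRenilla columns are mostly blue in both lines, the shUTX over shRenilla column is blue in CUTLL1 and near 0 in CEM, and BOP1 and NPM1 in CUTLL1 shJMJD3 over shUTX, at 2.58 and 2.07, lie beyond the colour scale.

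SRM, spermidine synthase, stood lowest of the 36 when both lines were averaged. It had 13.2 CPM in CUTLL1 shJMJD3 and 20.0 CPM in CUTLL1 shUTX, against 33.2 CPM in the larger and 28.9 CPM in the smaller control column. In CEM it had 27.6 CPM in shJMJD3 and 87.7 CPM in shUTX, against 83.5 CPM in shRenilla. The shJMJD3 column was thus the lowest in each line, with log2 ratios to shRenilla of -1.18 in CUTLL1 (95% counting interval -1.25 to -1.12) and -1.29 in CEM (-1.36 to -1.22). These intervals cover counting error only. ODC1, ornithine decarboxylase, which makes the polyamine precursor putrescine, had 163 CPM in CUTLL1 shJMJD3 against 235 CPM in its control, and 81.2 CPM in CEM shJMJD3 against 163 CPM in shRenilla. Its log2 ratios were -0.37 and -0.70.

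The RNA polymerase I group was lower in all 3 members and both lines. MYBBP1A, a nucleolar MYB-binding protein that acts on polymerase I transcription and precursor processing, had 92.0 CPM in CUTLL1 shJMJD3 and 88.2 CPM in CUTLL1 shUTX, against 164 CPM in the larger and 155 CPM in the smaller control column. In CEM it had 39.8 CPM in shJMJD3 and 116 CPM in shUTX, against 121 CPM in shRenilla. Both knockdowns were lower than the control in CUTLL1, whereas in CEM the shJMJD3 column stood apart from the other columns. The log2 ratios of shJMJD3 to shRenilla were -0.68 (interval -0.71 to -0.66) and -1.29 (-1.35 to -1.23), and SRM and MYBBP1A were the 2 genes at least 1.5-fold lower in both lines, against 2.48% of all genes with 50 counts in each line. POLR1A, the largest subunit of the polymerase, had 62.4 CPM in CUTLL1 shJMJD3 against 101 CPM in its control and 46.8 CPM in CEM shJMJD3 against 125 CPM in shRenilla, with ratios of -0.55 and -1.10. POLR1B, the second largest subunit, had ratios of -0.33 and -0.67.

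Among box C/D proteins, 3 of 4 were lower and 1 was not. RRP9, a U3 particle protein, had 27.8 CPM in CUTLL1 shJMJD3 against 38.3 CPM in its control, and 14.8 CPM in CEM shJMJD3 against 36.7 CPM in shRenilla. Its log2 ratios were -0.31 and -1.004, those of the core protein NOP56 were -0.40 and -0.79, and those of its partner NOP58 were -0.25 and -0.46. FBL, fibrillarin, the methyltransferase of the same particles, ran the other way in CEM. It had 284 CPM in CEM shJMJD3 and 267 CPM in CEM shUTX, against 213 CPM in shRenilla, so both knockdown columns lay above the control. In CUTLL1 it had 89.7 CPM in shJMJD3 and 136 CPM in shUTX, against 96.5 CPM in the larger and 115 CPM in the smaller control column. Its ratios of shJMJD3 to shRenilla were 0.73 in CEM (interval 0.70 to 0.75) and 0.05 in CUTLL1 (0.02 to 0.08), the second of which turned to -0.11 with column totals. The box H/ACA proteins spread in the same manner. DKC1, dyskerin, the pseudouridine synthase, had ratios of -0.43 and -0.11 and GAR1 of -0.16 and 0.01. NHP2 had 43.1 CPM in CUTLL1 shJMJD3 against 43.4 CPM in its control, and 12.3 CPM in CEM shJMJD3 against 9.95 CPM in shRenilla, with ratios of 0.14 in CUTLL1, which turned to -0.01 with column totals, and 0.61 in CEM.

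**Figure D3:**
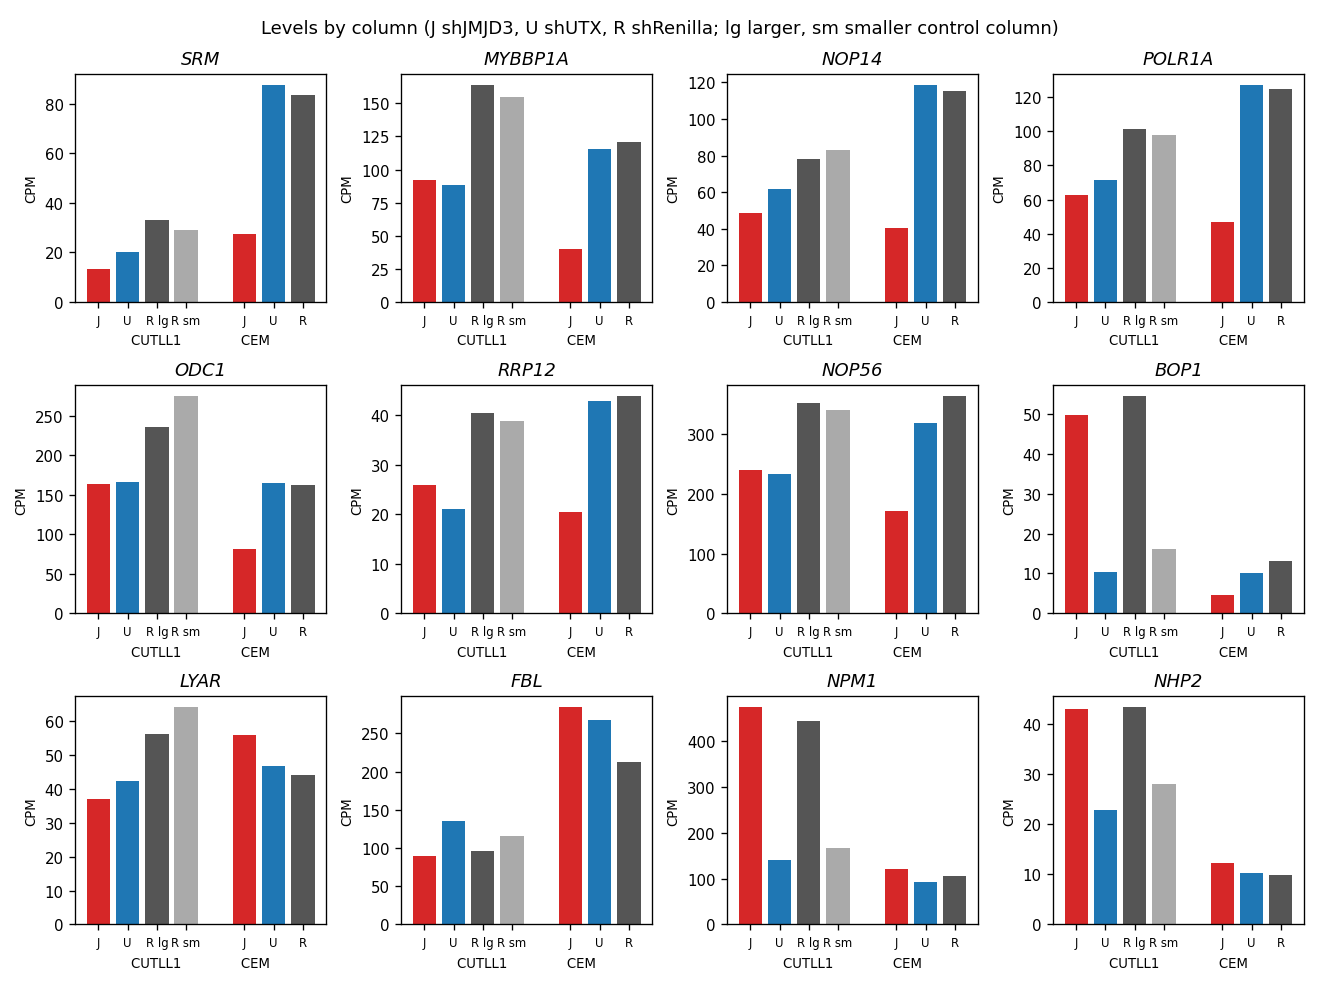
Levels of 12 of the genes in CPM (counts scaled to the column total, y axis, from 0) in each pooled column of CUTLL1 and CEM; each bar is 1 column, with no replicate error, and both forms of the CUTLL1 control are shown. SRM, MYBBP1A, NOP14 and POLR1A have their lowest CEM bar in shJMJD3 with shUTX and shRenilla close together, while BOP1, NPM1 and NHP2 in CUTLL1 are high in shJMJD3 and the larger control and low in shUTX and the smaller control.

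All 7 small subunit factors were below 0 in CUTLL1 (-0.53 to -0.20) and 5 were in CEM (-1.19 to 0.12). NOP14, needed for 18S rRNA maturation, had 48.7 CPM in CUTLL1 shJMJD3 and 61.5 CPM in CUTLL1 shUTX, against 78.1 CPM in the larger and 82.9 CPM in the smaller control column. In CEM it had 40.7 CPM in shJMJD3 and 119 CPM in shUTX, against 115 CPM in shRenilla. The shJMJD3 column was the lowest in both lines, with ratios of -0.53 and -1.19. Its antisense gene NOP14-AS1 had 4081 counts in CUTLL1 shJMJD3 against 8702 in its control and 1339 in CEM shJMJD3 against 3815 in shRenilla. Whether the authors' counting used the strand is not given, so the part of NOP14-AS1 in the NOP14 counts was not tested. RRP12 had ratios of -0.49 and -0.79 and WDR43 of -0.38 and -0.63. HEATR1, BYSL, NAT10 and TSR1 lay between -0.28 and -0.20 in CUTLL1 and between -0.06 and 0.12 in CEM.

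Of the 13 large subunit factors, 10 were below 0 in each line. PES1 and BOP1 form one complex with WDR12, and the 3 had unlike ratios. PES1 had ratios of -0.34 and -0.49 and WDR12 of -0.11 and 0.02. BOP1 had 49.8 CPM in CUTLL1 shJMJD3 and 10.4 CPM in CUTLL1 shUTX, against 54.6 CPM in the larger and 16.1 CPM in the smaller control column. In CEM it had 4.65 CPM in shJMJD3 and 10.04 CPM in shUTX, against 13.3 CPM in shRenilla. Its ratios were 0.02 in CUTLL1 (interval -0.02 to 0.06; -0.13 with column totals) and -1.20 in CEM (-1.38 to -1.03). The RNA helicase DDX21, MRTO4, EBNA1BP2 and PPAN were below 0 in both lines, between -0.51 and -0.20. NOP2, a ribosomal RNA methyltransferase, had ratios of -0.07 and -0.47, and NOC2L, GNL3 (nucleostemin), RRP1B and NOP16 lay between -0.21 and 0.14.

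WDR74, an assembly factor of the large subunit, and LYAR, a nucleolar zinc finger protein, had the most opposite ratios between the lines. RNU2-2P, a U2 small nuclear RNA gene, overlaps WDR74 on the same strand. It had 99.1% as many counts as WDR74 in CUTLL1 shJMJD3 and 98.5% in its control, against 31.6% and 37.2% in CEM. How overlapping reads were counted is not stated, so it is assumed that the WDR74 count holds those of RNU2-2P. With those counts taken away on that assumption, the WDR74 ratios were -0.09 in CUTLL1 and -0.37 in CEM in place of 0.67 and -0.50. LYAR had 37.0 CPM in CUTLL1 shJMJD3 and 42.3 CPM in CUTLL1 shUTX, against 56.4 CPM in the larger and 64.3 CPM in the smaller control column, so both knockdown columns were lower there. In CEM it had 56.1 CPM in shJMJD3 and 46.8 CPM in shUTX, against 44.3 CPM in shRenilla, and its ratios were -0.46 and 0.65. The nucleolar phosphoprotein NOLC1 had ratios of -0.37 and -0.32 and nucleolin (NCL) of -0.23 and -0.07. NPM1, nucleophosmin, had ratios of 0.25 and 0.49 and, with FBL, NHP2, LYAR and WDR74, made up the 5 highest means.

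**Figure D4:**
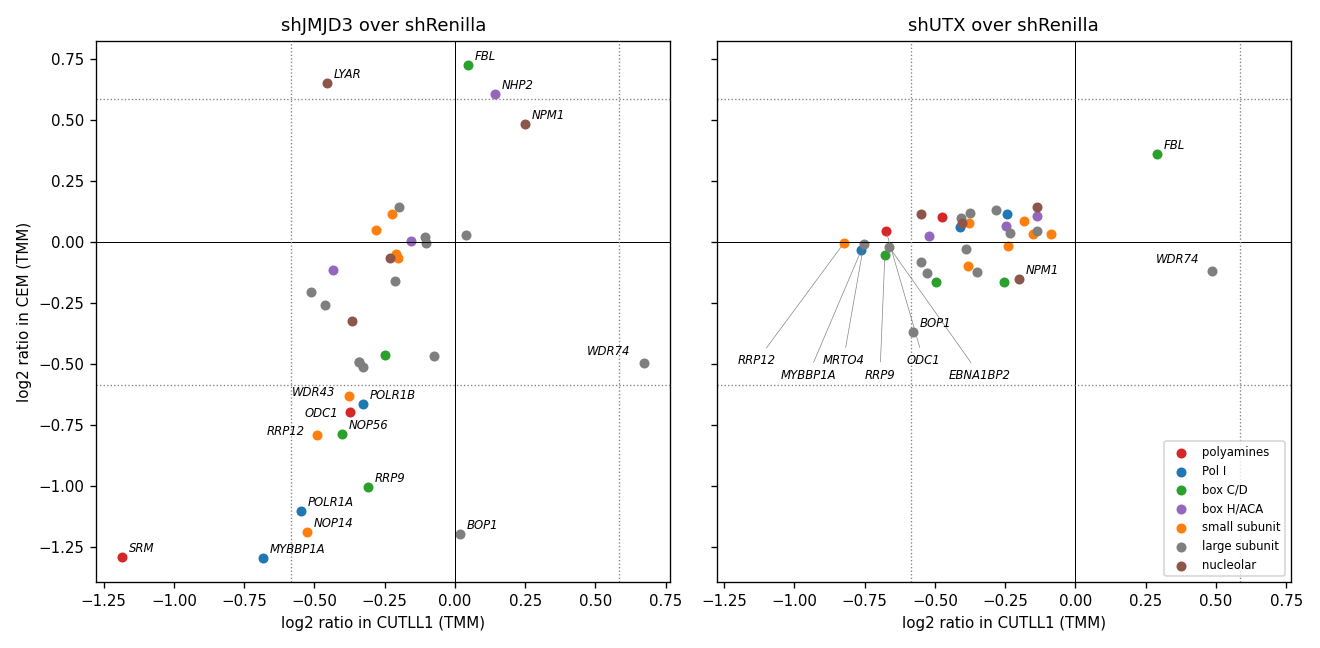
Log2 ratio (TMM) in CUTLL1 (x axis) against that in CEM (y axis) for the 36 genes, coloured by role, for shJMJD3 over shRenilla (left) and shUTX over shRenilla (right); dotted lines mark 1.5-fold. In the left panel 24 genes lie below 0 on both axes with SRM farthest out, and in the right panel the genes spread along the CUTLL1 axis while all lie between -0.37 and 0.36 in CEM.

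Across the 36 genes, the shJMJD3 to shRenilla ratios of the lines, which share no column, had a Pearson correlation of 0.50 and a Spearman correlation of 0.57, or 0.62 and 0.63 without WDR74. For shUTX to shRenilla they were 0.28 and 0.30, and for shJMJD3 to shUTX 0.16 and 0.05. These are descriptions over 36 genes that share the libraries of each line.

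With the lines as replicates, 0 of the 24003 genes tested for shJMJD3 against shRenilla (0.0%), and hence 0 of the 36, had an adjusted p under 0.05 by edgeR (quasi-likelihood test, Benjamini-Hochberg). At an unadjusted p under 0.05 stood 936 genes (3.9%), among them SRM and NOP14. SRM had a fitted log2 ratio of -1.23 with a standard error of 0.31 (edgeR adjusted p = 0.800), and NOP14 one of -0.83 with a standard error of 0.31 (edgeR adjusted p = 0.800). MYBBP1A (-0.94, standard error 0.39) and POLR1A (-0.80, standard error 0.32) did not reach an unadjusted p of 0.05. DESeq2 called 115 genes (0.479%), none of the 36. The number of the 36 at an unadjusted p under 0.05 in edgeR depended on the setting. It was 13, all lower, with column totals and 4 with no filter other than 1 count. It was 3, 1 of them lower, with the smaller CUTLL1 control, 1 with DESeq2 size factors and 0 without the line as a block. Over all genes the counts in that order were 1483 of 24003, 1371 of 40694, 1399 of 23112, 944 of 24003 and 78 of 24003. Of the 1483 with column totals, 1201 were lower and 282 higher. The test rests on 2 lines and 2 residual degrees of freedom per gene, and edgeR moderates the spread of each gene with that of all genes. It did not call the targeted genes either. KDM6B had a fitted log2 ratio of -1.15 for shJMJD3 over shRenilla with a standard error of 0.30 (edgeR adjusted p = 0.800), and KDM6A had -1.25 for shUTX over shRenilla with a standard error of 0.17, also not called. The lack of a call is therefore no measure of whether a gene differed. The authors' deposited table, which compares the reads of the columns, put 33 of the 36 lower and 2 higher in CUTLL1 shJMJD3 and 32 lower and 4 higher in CEM shJMJD3 at p under 0.001, where its shares over all genes were 29.1% lower and 11.1% higher in CUTLL1 and 37.1% lower and 17.3% higher in CEM.

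MYC itself had 242 CPM in CUTLL1 shJMJD3 and 436 CPM in CUTLL1 shUTX, against 409 CPM in the larger and 489 CPM in the smaller control column. In CEM it had 171 CPM in shJMJD3 and 222 CPM in shUTX, against 233 CPM in shRenilla. The ratios of shJMJD3 to shRenilla were -0.60 in CUTLL1 and -0.14 in CEM, and those of shUTX to shRenilla -0.11 and -0.04, with an adjusted p of 0.800 by edgeR for shJMJD3. In shJMJD3 cells the 17 genes with an E-box in the promoter window had median ratios to shRenilla of -0.34 in CUTLL1 and -0.49 in CEM, and the 14 with a window but no E-box had medians of -0.22 and -0.09. For shUTX the medians were -0.41 with and -0.24 without the motif in CUTLL1, and 0.03 with and 0.04 without it in CEM. The 14 include WDR74, NPM1, NHP2 and NOC2L, whose shJMJD3 ratios to shRenilla in CUTLL1 were 0.67, 0.25, 0.14 and -0.21. Those of NPM1, NHP2 and NOC2L change sign with the form of the control, and WDR74 overlaps RNU2-2P. Medians without these genes were not taken, and no test was made of the medians given.

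The second comparison set shUTX cells against shRenilla cells. In CUTLL1 nearly all of the 36 genes were lower, with a median log2 ratio of -0.38 (range -0.82 to 0.49) against 0.00 over all genes and 34 of 36 below 0. In CEM the median was 0.04 (range -0.37 to 0.36), with 16 below 0. Over all genes with at least 10 CPM, 53.7% were below 0 in CUTLL1 and 48.8% in CEM. At least 1.5-fold lower were 6 genes in CUTLL1 (16.7% of the 36) and 0 in CEM, against backgrounds of 2.17% and 4.09% of genes with at least 50 counts and of 0.384% and 0.865% of genes with at least 10 CPM. The CUTLL1 values are against the smaller control column, and against the larger column and the remainder the median was -0.56 and -0.80, with 16 genes (background 17.9%) and 26 genes (background 26.0%) 1.5-fold lower. At least 1.5-fold higher were 0 in either line, where the backgrounds were 3.68% and 3.31% of genes with at least 50 counts and 1.22% and 0.922% of genes with at least 10 CPM. Both lines were below 0 for 15 genes, against 27.3% of all genes, and 0 were 1.5-fold lower in both (0.158% of all genes).

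The 6 lower genes in CUTLL1 came from several roles. RRP12, an export and maturation factor of the small subunit, had 21.1 CPM in CUTLL1 shUTX against 38.8 CPM in its control, and 42.7 CPM in CEM shUTX against 43.9 CPM in shRenilla. The CUTLL1 column was lower and the CEM columns lay close together, with ratios of -0.82 and -0.00. MYBBP1A had ratios of -0.76 and -0.03, the large subunit factor MRTO4 of -0.75 and -0.01, RRP9 of -0.68 and -0.05, ODC1 of -0.67 and 0.05 and EBNA1BP2 of -0.66 and -0.02. BOP1 was the lowest when both lines were averaged, at -0.58 and -0.37. SRM, the lowest in shJMJD3 cells, had ratios of -0.48 and 0.10.

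FBL was the one gene above 0 in both lines, at 0.29 in CUTLL1 and 0.36 in CEM. WDR74 had 0.49 and -0.12, or -0.35 and 0.10 with the RNU2-2P counts taken away. NCL (-0.14 and 0.14) and PPAN (-0.28 and 0.13) had the most opposite ratios between lines, judged by the smaller of their 2 ratios, and GAR1 (-0.14 and 0.11) and HEATR1 (-0.09 and 0.04) completed the 5 highest means. The other genes by role ran from -0.41 to -0.24 for the polymerase subunits in CUTLL1 and from -0.55 to -0.14 for nucleolar proteins, with all 4 nucleolar proteins, all 3 box H/ACA proteins and all 7 small subunit factors below 0. In CEM the box H/ACA proteins lay between 0.02 and 0.11 and the small subunit factors between -0.10 and 0.08.

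By edgeR's quasi-likelihood test, 0 of 23112 genes passed an adjusted p of 0.05 for shUTX against shRenilla, 39 had an unadjusted p under 0.05 (0.169%), and 0 of those were among the 36. DESeq2 called 1 gene (0.00433%), not one of the 36. The authors' deposited table put 33 of the 36 lower and 2 higher in CUTLL1 at p under 0.001, and 10 lower and 5 higher in CEM, with shares over all genes of 17.9% lower and 9.49% higher in CUTLL1 and of 15.2% lower and 10.6% higher in CEM. The log2 ratios of that table over the 36 had medians of -0.43 in CUTLL1 and 0.00 in CEM, again as with column totals. Both comparisons with shRenilla share the control column in CEM and part of it in CUTLL1.

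The third comparison set shJMJD3 cells directly against shUTX cells, and here the lines went opposite ways. In CUTLL1 the median log2 ratio was 0.22 (range -0.29 to 2.58) with 29 of 36 above 0, and it turned to -0.10 when scaled to column totals. In CEM the median was -0.35 (range -1.42 to 0.61) with 30 of 36 below 0, and -0.59 with column totals. Over all genes with at least 10 CPM, 53.9% were below 0 in CUTLL1 and 47.2% in CEM. At least 1.5-fold lower were 0 in CUTLL1 and 11 in CEM, against backgrounds of 6.52% and 23.3%, and at least 1.5-fold higher were 6 and 1, against 19.2% and 22.2%. Among genes with at least 10 CPM the backgrounds were 3.39% and 17.3% lower and 10.6% and 21.9% higher. With column totals, 2 were lower and 4 higher in CUTLL1, and 18 were lower and 0 higher in CEM, where over all genes 21.3% were lower and 15.3% higher in CUTLL1, and 33.3% lower and 15.2% higher in CEM. Ratios of opposite sign in the lines were found for 25 of the 36, against 48.0% of all genes. Of the 36, 0 were 1.5-fold lower and 1 was 1.5-fold higher in both lines, against 2.51% and 3.9% of all genes.

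The 5 genes with the lowest means of both lines were SRM, NOP14, MYBBP1A, POLR1A and POLR1B, with CEM ratios of -1.42, -1.30, -1.29, -1.20 and -0.81. The same genes in CUTLL1 stood at -0.29, -0.02, 0.38, 0.13 and 0.08. SRM and NOP14 were the 2 of these below 0 in both lines. In CUTLL1 the highest were BOP1 at 2.58, NPM1 at 2.07, NOC2L at 1.26, NHP2 at 1.23, NOP2 at 0.65 and RRP12 at 0.61, which in CEM stood at -0.86, 0.61, -0.11, 0.51, -0.37 and -0.82. NPM1 had 474 CPM in CUTLL1 shJMJD3 against 141 CPM in CUTLL1 shUTX, and 120 CPM in CEM shJMJD3 against 93.5 CPM in CEM shUTX. It was thus higher in shJMJD3 in both lines and was the 1 gene past 1.5-fold in both. LYAR, with 0.12 and 0.51, was the other of the 5 highest means beside NPM1, NHP2, BOP1 and NOC2L. BOP1 and RRP12 had the most opposite ratios of the 36.

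By edgeR's quasi-likelihood test, 0 of 24003 genes passed for shJMJD3 against shUTX and 1945 had an unadjusted p under 0.05 (8.1%), among them SRM with a fitted log2 ratio of -0.95 and a standard error of 0.31 (edgeR adjusted p = 0.588). NPM1 was the other, at 1.20 with a standard error of 0.44 (edgeR adjusted p = 0.608). The count of the 36 was 4, all lower, with column totals, 3 with no filter other than 1 count and 0 without the line as a block. Over all genes the counts in that order were 2682 of 24003, 2350 of 40694 and 159 of 24003. Of the 2682 with column totals, 1666 were lower and 1016 higher. DESeq2 called 310 genes (1.29%), none of the 36. The authors' deposited table put 17 of the 36 lower and 11 higher in CUTLL1 and 32 lower and 4 higher in CEM. Its shares over all genes were 37.9% lower and 13.5% higher in CUTLL1 and 35.0% lower and 18.0% higher in CEM. Its log2 ratios over the 36 had medians of -0.10 and -0.59, as with column totals. The TMM medians were 0.22 and -0.35.

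The 2 forms of the CUTLL1 control differed in many genes, these among them. The remainder of the larger column had a median log2 ratio of 0.45 to the smaller column over the 36 genes, 34 of which were higher, 11 by at least 1.5-fold, where over all genes with at least 50 counts 50.8% were higher, 23.8% by at least 1.5-fold. BOP1 had 104 CPM in the remainder against 16.1 CPM in the smaller column, NPM1 793 against 168 CPM, NOC2L 159 against 65.5 CPM and NHP2 63.0 against 28.04 CPM, with log2 ratios of 3.30, 2.86, 1.89 and 1.78. These 4 also stood highest in CUTLL1 shJMJD3 over shUTX, where the shJMJD3 column has 11.7% and the shUTX column 2.58% small non-coding RNA. The 16 annotated NPM1 pseudogenes, from whose sequence short reads may not be told apart, had 4611 counts in CUTLL1 shJMJD3 and 85 in shUTX, against 5442 in the larger and 117 in the smaller control column. The part of library makeup in these ratios was not tested, and the sources used do not state which samples each column holds.

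**Figure D5:**
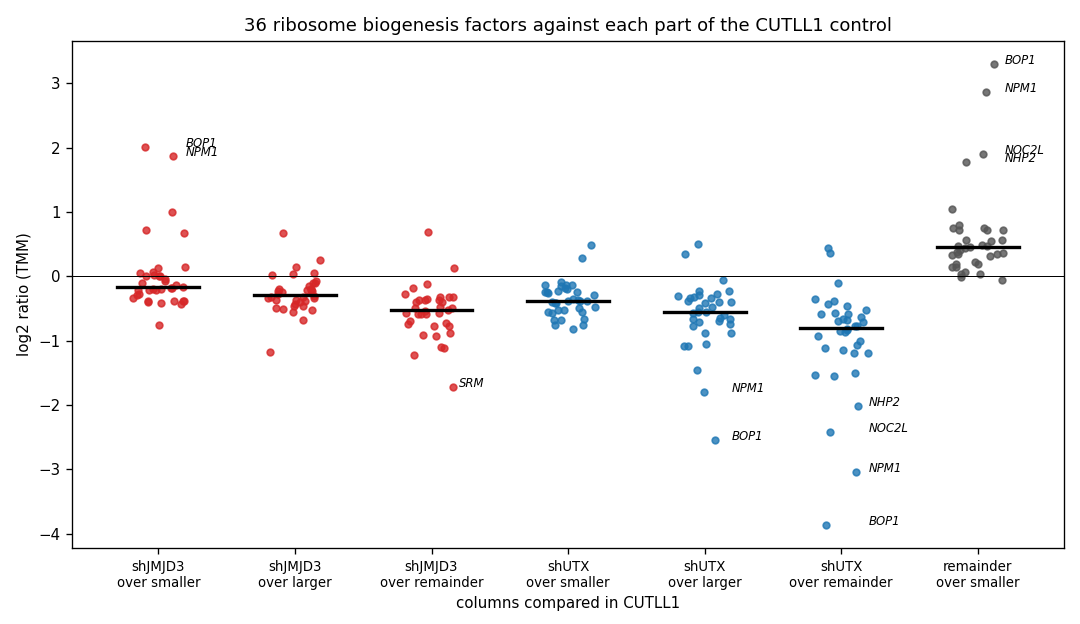
Log2 ratio (TMM, y axis) of the 36 genes in CUTLL1 for shJMJD3 (red) and shUTX (blue) over the smaller column, the larger column and the remainder of the shRenilla control, and of the remainder over the smaller column (grey); each point is 1 gene and each bar the median. Medians of shJMJD3 are -0.17 over the smaller column and -0.52 over the remainder, those of shUTX are -0.38 and -0.80, and BOP1 and NPM1 lie farthest out for shJMJD3 over the smaller column and for shUTX over the larger column and the remainder.

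Against the smaller column, the larger column and the remainder, the median of the 36 genes was -0.17, -0.30 and -0.52 for shJMJD3 and -0.38, -0.56 and -0.80 for shUTX. SRM in shJMJD3 had ratios of -0.76, -1.18 and -1.73, and MYBBP1A of -0.38, -0.68 and -1.10. Every median and both genes thus stayed below 0 against each form, while the size varied. For shJMJD3, 1 gene was 1.5-fold lower and 5 were higher against the smaller column, with backgrounds of 4.75% and 19.3%, and 13 were lower against the remainder, with a background of 20.6%. BOP1 in shJMJD3 had 2.01, 0.02 and -1.23 and NPM1 had 1.87, 0.25 and -0.91, so their sign in CUTLL1 depends on the control column.

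Per kilobase of exon, where levels can be set between genes, the order differed between the lines. In CEM shRenilla the highest of the 35 genes with a length were NCL at 241 CPM per kilobase, FBL at 98.0, DDX21 at 78.9, NOLC1 at 74.1 and NOP56 at 67.6, and the lowest were NOP16 at 6.13, RRP12 at 5.14 and WDR12 at 4.85. In the larger CUTLL1 control, WDR74 stood first at 1033, a level assumed to hold the RNU2-2P counts. NPM1 at 116, ODC1 at 79.3, NOLC1 at 71.3 and NOP56 at 65.2 followed, with NCL at 56.4. In the smaller CUTLL1 control NPM1 stood 9th at 43.8, and ODC1 at 92.7 and DDX21 at 73.0 followed WDR74. GAR1 was the lowest in each CUTLL1 control, at 2.32 in the larger and 2.42 in the smaller, against 13.5 in CEM shRenilla. SRM had 17.5 in the larger CUTLL1 control and 44.0 in CEM shRenilla. With 1 column per line these orders have no replicate error. Protein-coding genes took 72.2% of the larger and 81.8% of the smaller CUTLL1 control, against 93.0% of CEM shRenilla. Line and library makeup cannot be told apart in these levels. The lengths count all annotated exons of a gene, not those of the transcripts expressed.

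A list of 114 other ribosome biogenesis factors gave the wider picture. Their median ratio of shJMJD3 to shRenilla was -0.18 in CUTLL1, with 89 below 0, and -0.14 in CEM, with 68 below 0. Over all genes with at least 10 CPM, 50.3% were below 0 in CUTLL1 and 45.9% in CEM. At least 1.5-fold higher were 0 of the 114 in CUTLL1 and 9 in CEM (7.89%). The backgrounds over genes with at least 50 counts were 8.62% and 22.3%. At least 1.5-fold lower were 4 of the 114 in CUTLL1 (3.51%) and 18 in CEM (15.8%). The lower shares are below the backgrounds of 7.25% and 24.0% over genes with at least 50 counts, and against the 2.16% and 16.5% over genes with at least 10 CPM the CUTLL1 share is above and the CEM share below. The lowest were UBTF, the polymerase I upstream binding factor, at -0.41 and -1.38, GNL3L at -0.64 and -1.04 and the small subunit factor UTP20 at -0.67 and -0.96. The highest were the polymerase subunit POLR1D at 0.37 and 1.08, TAF1D at 0.40 and 1.03 and NSA2 at 0.15 and 0.92. For shUTX over shRenilla, 53.7% of all genes with at least 10 CPM were below 0 in CUTLL1 and 48.8% in CEM. Of all genes with at least 50 counts, 2.17% and 4.09% were 1.5-fold lower. The medians of the 114 were -0.24 in CUTLL1, with 101 below 0, and -0.03 in CEM, with 68 below 0. Of the 114, 1 gene in CUTLL1 and 0 in CEM were 1.5-fold lower. POLR1C (-0.48 and -0.32), PNO1 (-0.53 and -0.18) and URB2 (-0.53 and -0.13) were lowest there, and POLR1E (-0.02 and 0.25), TAF1B (0.12 and 0.11) and EFTUD1 (0.10 and 0.12) highest. For shJMJD3 over shUTX the medians were 0.11 and -0.07, the lowest were UBTF (0.13 and -1.39), GNL3L (-0.14 and -0.90) and EIF6 (0.01 and -0.93), and the highest were PA2G4 (2.29 and -0.05), NSA2 (1.11 and 0.83) and TAF1D (0.72 and 1.03). The medians of the 36 genes lay farther below 0 than those of the 114 for shJMJD3 over shRenilla in both lines. This is a description of 2 lists and not a test, and both lists were chosen with earlier results of these data known. By edgeR 0 of the 114 were called in any comparison. At an unadjusted p under 0.05 stood 6 lower and 1 higher for shJMJD3 over shRenilla, 0 for shUTX over shRenilla, and 2 higher for shJMJD3 over shUTX. Over all genes, 412 of 24003 were lower and 524 higher in the first comparison. In the second, 39 of 23112 were under that p. In the third, 673 of 24003 were lower and 1272 higher.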

How the data were processed

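Poly-A+ or Ribominus RNA was made into strand-specific dUTP libraries and read as 50 bp single reads, per the labels' protocols. CASAVA, TopHat and hg19 are named in the submitters' processing notes. How genes were counted, and whether by strand, is not stated there. The authors deposited raw counts per gene, 1 pooled column per hairpin and line, in 6 DEGseq tables. Their log2 ratios and p-values come from DEGseq, per the file headers. Missing values, found where neither column had a count, were read as 0. No per-sample column was left unused.

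CPM were scaled to column totals. Ratios used TMM (edgeR 4.0.16, R 4.3.3) on the pair of columns, a prior count of 2 and genes with at least 50 counts in either column, with exact binomial 95% intervals for counting error. Across lines, edgeR's quasi-likelihood test used filterByExpr and the line as a block, with DESeq2 1.42.0 as an alternative. The p-values rest on how far the differences between hairpins disagree between the 2 lines, with all hairpins in one fit. The spread of each gene is moderated with that of all genes, so the p-values do not rest on its 2 residual degrees of freedom alone. In the fit for shJMJD3 against shUTX, the CUTLL1 control was the larger column. Gene lengths and overlaps came from GENCODE 29, matched by identifier for 48932 of 55075 genes (35 of the 36, not BOP1). Antisense neighbours, snoRNA hosts and readthrough genes (PPAN with PPAN-P2RY11) make some counts uncertain. Members and lists were chosen with earlier results of these data known. Text names genes 1.5-fold apart in both lines, the 5 lowest and 5 highest means, the 2 most opposite, and others by role.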

Additional observations from a re-analysis of the deposited data

Results flagged for a closer look

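Several results differed between CUTLL1 and CEM under the same pair of hairpins. In each case the difference between the lines was not tested, since each line has 1 column per hairpin. For shJMJD3 over shRenilla, WDR74 was higher in CUTLL1 and lower in CEM, with a CEM minus CUTLL1 difference of -1.17 on the log2 scale. The overlapping gene RNU2-2P had nearly as many counts as WDR74 in CUTLL1. With the RNU2-2P counts taken away, on the assumption that the WDR74 count holds them, the ratios were -0.09 in CUTLL1 and -0.37 in CEM. Both were then below 0. LYAR was lower in CUTLL1 and higher in CEM, with a difference of 1.11. For shUTX over shRenilla, the median of the 36 genes was -0.38 in CUTLL1 and near 0 in CEM, a difference of 0.41. The CEM median was 0.04, with 16 of 36 below 0. The CUTLL1 median was -0.56 against the larger control column and -0.80 against the remainder. NCL and PPAN were below 0 in CUTLL1 and above 0 in CEM, with differences of 0.28 and 0.41. For shJMJD3 over shUTX, the median was above 0 in CUTLL1 and below 0 in CEM, a difference of -0.57, and the CUTLL1 median turned below 0 with column totals. BOP1 and RRP12 went the same ways with differences of -3.44 and -1.43. These genes also differed within the CUTLL1 control, where the log2 ratios of the remainder to the smaller column were 3.30 and 0.74. Small non-coding RNAs took 18.7% of the remainder and 1.97% of the smaller column. They took 11.7% of CUTLL1 shJMJD3 and 2.58% of CUTLL1 shUTX. The part of library makeup in these differences was not tested.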

How the results depend on the processing

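A median was taken as moved where it shifted by more than the median half-width of the 36 counting intervals, and a count where it changed by over 1.5 times or, for genes called across lines, at all. Of the recomputed values, 124 stayed within these limits, 31 moved and 1 changed sign. Scaling to column totals gave medians of -0.45 (CUTLL1) and -0.60 (CEM) for shJMJD3 over shRenilla, with 9 and 18 genes 1.5-fold lower and 0 higher, and a median of -0.43 for shUTX over shRenilla in CUTLL1. It turned the CUTLL1 median of shJMJD3 over shUTX to -0.10, with 2 genes lower, and gave -0.59 in CEM with 18 lower and 0 higher. Against the other CUTLL1 control column, the shJMJD3 median was -0.17 with 1 gene lower and 5 higher (backgrounds 4.75% and 19.3%). The shUTX median was -0.56 with 16 lower (background 17.9%). Against the remainder, the shJMJD3 median was -0.52 with 13 lower (background 20.6%). The shUTX median against it was -0.80 with 26 lower (background 26.0%). Without WDR74, 0 genes were 1.5-fold higher in CUTLL1 shJMJD3 over shRenilla. Without WDR74, BOP1, NPM1, NHP2 and NOC2L that comparison had a median of -0.33 and 0 higher, and shJMJD3 over shUTX had a median of 0.18 with 2 higher in CUTLL1 and 0 higher in CEM. Both of these sets, and scaling over protein-coding genes, were chosen after the data were seen. Scaling over protein-coding genes kept all values within the limits, with a median of -0.34 and 2 higher in CEM for shJMJD3 over shRenilla and 7 higher in CUTLL1 for shJMJD3 over shUTX. Genes called across lines numbered 115, 1 and 310 with DESeq2 for shJMJD3 over shRenilla, shUTX over shRenilla and shJMJD3 over shUTX, against 0 with edgeR. For shJMJD3 over shUTX edgeR called 6 with column totals and 55 with no filter other than 1 count. None of these settings called any of the 36. Beyond the construction of each setting, the cause was not tested. The columns of a line were paired by the line as a block, and without that block edgeR also called 0 genes in each comparison. By replicate number, no paired analysis was possible because the deposited columns are pooled and carry no replicate numbers, and single replicates could not be left out for the same reason.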
